A study of Drosophila melanogaster with 36 samples.

Results

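Distal cells of the Drosophila melanogaster wing imaginal disc, sorted by activity of the nub driver, were set against proximal cells of the same disc, sorted by the tsh driver. The comparison was defined by the labels alone: 2 wing nub libraries and 2 wing tsh libraries, 4 of the 8 RNA-seq libraries in a series of 36 samples. Wing nub larvae had the genotype yw;nub.gal4;uas-kash.GFP and wing tsh larvae yw;tsh.gal4;uas-kash.GFP, so both carried the yw background and the same GFP transgene, a nuclear envelope tag switched on by Gal4. The haltere nub and haltere tsh libraries, 2 of each with the same 2 genotypes, entered the model and served as the second disc. Larvae were raised at 25 °C and dissected at the wandering last larval instar (L3). The drivers come from 2 fly lines, so the effects of domain and of line cannot be told apart. The label nub or tsh names the driver of the sort, not a pure cell type.

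The wing disc is an epithelial sac that forms the wing blade, the hinge and the notum, a part of the dorsal thorax. Along its proximal to distal axis, the zinc finger protein Tsh and the homeodomain protein Hth hold the notum and proximal hinge in a body wall state. The centre of the disc loses them, takes up the selector pair Vg and Sd, and expresses nested distal regulators such as Nub, Rn and Dll, while Wingless, Dpp, Hedgehog and EGFR signals pattern the field. In bulk RNA from sorted cells, fewer cells of a type and less RNA per cell cannot be told apart.

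The values are read counts, given below as CPM, counts scaled to a fixed library total, scaled by TMM, a factor per library computed from the bulk of genes. The 4 wing libraries held between 15583085 and 17705451 counts, and the haltere nub libraries 96525031 and 92342738. Wing tsh replicate 1 carried low-level reads over many genes: 5186 of them were at 1 to 5 CPM, a range that held 1822 to 2312 genes in each of the other 7 libraries. Across genes, the log2 CPM of the wing tsh replicates correlated with r = 0.975 (Pearson), against 0.992 to 0.997 within the other groups. A gene was therefore called here only at an adjusted p under 0.05 in edgeR, a mean of at least 5 CPM in wing nub or wing tsh cells, and both nub libraries on the same side of both tsh libraries. The last condition removed no gene: 1356 genes were called with it and 1356 without it. The level condition did the filtering, and wing tsh replicate 1 enters the mean that it uses. Log2 fold changes are wing nub over wing tsh and are given ± SE, with n = 2 libraries a group. For 151 genes followed across fits, the value without a library is given where leaving it out ends the call. Genes named besides these were not followed in this way.

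The genes of the drivers separated the groups in every library. The POU homeodomain gene nub (2L, 12587625 to 12628135) had 1652 and 1587 CPM in wing nub libraries, against 38.7 and 36.1 CPM in wing tsh libraries (log2 fold change 5.43 ± 0.10, adjusted p = 6.89e-11). The gene tsh (2L, 21828593 to 21837011) had 19.0 and 11.9 CPM in wing nub libraries, against 690 and 764 CPM in wing tsh libraries (-5.56 ± 0.21, adjusted p = 1.43e-07). These genes gave the drivers their names, so both values check the labels and no more. Among called genes with counts in both groups, the largest fold change was that of the pigment gene y (X, 356509 to 361245), with 5911 and 7026 CPM in wing nub libraries and 17.1 and 12.1 CPM in wing tsh libraries (8.79 ± 0.20). The haltere libraries of the same 2 lines differed by 8.59 at y, and the genotypes list y among the mutations of both lines. The labels do not say whether either line also carries a copy of y, so reads of such a copy and of the resident gene cannot be told apart. The eye pigment transporter gene w, the other marker of that background, had 1284 and 1072 CPM in wing nub libraries and 870 and 1009 CPM in wing tsh libraries, which did not pass the test (0.33 ± 0.11, adjusted p = 0.0729) and did so without wing nub replicate 2 or without wing tsh replicate 2 (0.44 in both), with DESeq2 (0.32, adjusted p = 0.0156) and with upper quartile scaling (0.30, adjusted p = 0.0383).

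Of 17807 gene IDs, 11198 were tested, and 1549 of these (13.8%) passed the adjusted p alone, 667 higher and 882 lower in wing nub cells. Of the 7715 genes at 5 CPM or more in either group, 661 (8.57%) were called higher and 695 (9.01%) lower in wing nub cells. Gene lists below are counted over their tested members, and members under 5 CPM could not be called. These shares are therefore only a rough measure beside the list counts. The calls of at least 2-fold were more often lower: 158 genes (2.05%) were higher and 380 (4.93%) lower. The level mattered on 1 side: of the 193 genes that passed the adjusted p at under 5 CPM, 187 were lower in wing nub cells, the side on which the low-level reads of wing tsh replicate 1 add to the difference. Without that library 497 of the 661 higher calls and 598 of the 695 lower calls were made again. Leaving out other libraries moved the counts as well: 371 genes were called higher without wing nub replicate 1 and 431 without replicate 2. By the adjusted p alone, 533 genes were lower without wing nub replicate 1 and 1790 without wing tsh replicate 2, which leaves the library with low-level reads as the lone wing tsh library. A further check, chosen after seeing the data, asked for 5 CPM in wing nub cells or in wing tsh replicate 2 itself, and 37 of the lower calls and none of the higher calls did not meet it.

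**Figure D1:**
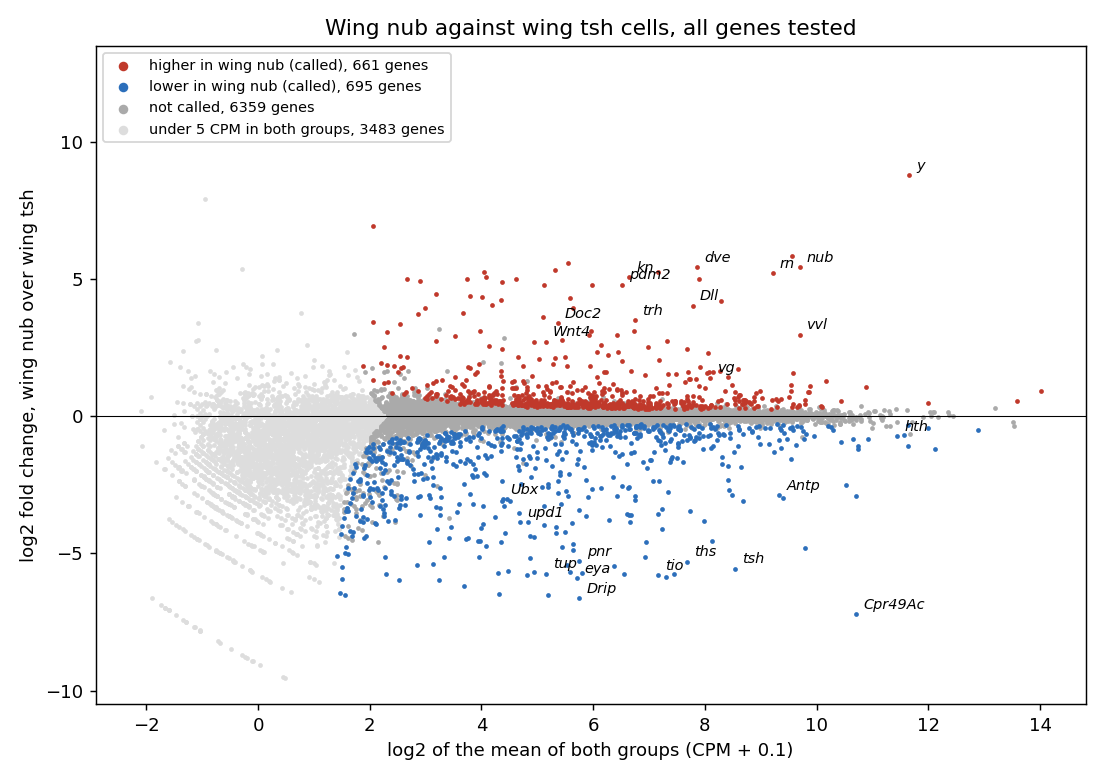
Log2 fold change (wing nub over wing tsh) against the mean level of both groups on a log2 scale, 1 point a gene, for the genes tested except 3 with a fitted log2 fold change of 10 or more in size. These 3 had no count in 1 group and were called. The other called genes, higher in red and lower in blue, spread across all levels above 5 CPM, and the pale points at the lower left are genes under 5 CPM in both groups, most of them below 0.

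The distal regulators were the group with the steepest rise. Of 18 listed, all at 5 CPM or more, 13 were called higher in wing nub cells and 4 lower, beside 8.57% and 9.01% of all genes at 5 CPM. The median log2 fold change was 1.88, beside 0.06 over all genes at 5 CPM. The list includes nub, the gene of the sort driver, whose value checks the label only. The homeobox gene dve, active in the pouch, had 457 and 448 CPM in wing nub libraries, against 12.2 and 8.86 CPM in wing tsh libraries (5.43 ± 0.13). The zinc finger gene rn, which marks the pouch rim and centre, had 1176 and 1139 CPM in wing nub libraries, against 33.4 and 28.9 CPM in wing tsh libraries (5.22 ± 0.15). Its partner nab, a transcriptional cofactor, differed by 5.27 ± 0.18, with 284 and 273 CPM in wing nub libraries and 9.21 and 5.24 CPM in wing tsh libraries. The COE factor gene kn, which patterns the centre of the wing between 2 veins, had 197 and 189 CPM in wing nub libraries, against 9.21 and 2.31 CPM in wing tsh libraries (5.06 ± 0.47). In all 4 the lower wing nub library lay far above the higher wing tsh library.

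Other members of the distal list rose by less. Dll, the homeobox gene of distal appendage identity, had 425 and 404 CPM in wing nub libraries and 23.8 and 26.7 CPM in wing tsh libraries (4.04 ± 0.11). The selector vg had 397 and 398 CPM in wing nub libraries and 151 and 149 CPM in wing tsh libraries (1.41 ± 0.09), and its DNA-binding partner sd rose by 0.59 ± 0.09. The vein and intervein genes bs and al rose by 2.44 ± 0.10 and 2.35 ± 0.13, and bi, a T-box target of Dpp, by 0.94 ± 0.12. The Dpp target salm had 540 and 571 CPM in wing nub libraries and 408 and 452 CPM in wing tsh libraries (0.37 ± 0.09), a call that was lost without wing nub replicate 1 (0.41) or replicate 2 (0.32). Its neighbour and paralog salr had 246 and 259 CPM in wing nub libraries and 212 and 243 CPM in wing tsh libraries, which did not pass (0.15 ± 0.09, adjusted p = 0.286) and did without wing tsh replicate 2 (0.25).

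The 4 distal regulators called lower went against their list. The vein gene kni had 40.6 and 40.5 CPM in wing nub libraries, against 74.8 and 85.7 CPM in wing tsh libraries (-0.99 ± 0.15), and its neighbour knrl had 54.2 and 61.4 CPM in wing nub libraries, against 145 and 149 CPM in wing tsh libraries (-1.35 ± 0.10). The zinc finger gene sqz, a relative of rn, differed by -1.02 ± 0.11 and the POU gene pdm3 by -1.67 ± 0.14. Both groups of libraries were well above 5 CPM at all 4 genes and did not overlap.

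The proximal regulators were lower almost throughout. Of 20 tested, 18 were called lower and none higher in wing nub cells, beside 9.01% and 8.57% of all genes at 5 CPM. The median was -2.66, beside 0.06 over all genes at 5 CPM. The list includes tsh, the gene of the other sort driver. Several of them had low levels in the distal cells. The GATA factor gene pnr had 1.76 and 3.61 CPM in wing nub libraries, against 107 and 104 CPM in wing tsh libraries (-5.28 ± 0.33). The LIM homeobox gene tup, which promotes notum identity, had 1.47 and 1.13 CPM in wing nub libraries, against 72.9 and 65.8 CPM in wing tsh libraries (-5.74 ± 0.19). The tendon gene sr differed by -4.89 ± 0.16. The retinal determination genes eya and so, which encode a cofactor and its homeodomain partner, differed by -5.91 ± 0.18 and -5.73 ± 0.37, and eya had 1.53 and 1.86 CPM in wing nub libraries, against 93.1 and 112 CPM in wing tsh libraries. The Bar homeobox genes B-H1 and B-H2, known for patterning the anterior notum, had the lowest levels of the list in wing nub libraries, with 0.470 and 0.226 CPM of B-H1 there, against 23.8 and 26.5 CPM in wing tsh libraries (-6.17 ± 0.34).

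A second set of proximal genes stayed well expressed in the distal cells. The homeobox gene hth had 2129 and 2050 CPM in wing nub libraries, against 3165 and 3749 CPM in wing tsh libraries, and differed by -0.73 ± 0.10 (adjusted p = 0.000408). Its partner exd had 123 and 123 CPM in wing nub libraries, against 119 and 143 CPM in wing tsh libraries, and did not pass (-0.09 ± 0.10, adjusted p = 0.584). The zinc finger gene opa did not pass either, with 94.4 and 91.4 CPM in wing nub libraries and 90.2 and 106 CPM in wing tsh libraries (-0.08 ± 0.10). The Iroquois homeobox genes, which separate notum from hinge, were between these and the notum genes: caup had 145 and 145 CPM in wing nub libraries, against 486 and 490 CPM in wing tsh libraries (-1.75 ± 0.08), with ara at -1.59 ± 0.09 and mirr at -1.49 ± 0.08. The Friend of GATA gene ush differed by -2.38 ± 0.12 and the homeobox gene Dr by -0.97 ± 0.11.

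The hinge regulators split in both directions. Of 13 tested, 4 were called higher and 6 lower in wing nub cells, beside 8.57% and 9.01% of all genes at 5 CPM. Their median was -0.14. Higher were the Doc genes (3L, 9005196 to 9045042), which encode T-box factors known from the lateral hinge: Doc2 had 73.5 and 76.7 CPM in wing nub libraries, against 7.80 and 6.56 CPM in wing tsh libraries (3.39 ± 0.13), with Doc1 at 3.12 ± 0.14 and Doc3 at 2.46 ± 0.16. The odd-skipped family, zinc finger genes of leg joints and the disc margin, was lower at 3 of 4 members. The gene drm had 5.40 and 5.36 CPM in wing nub libraries, against 262 and 359 CPM in wing tsh libraries (-5.85 ± 0.20), odd differed by -5.78 ± 0.28 and sob by -4.21 ± 0.22. The fourth, bowl, had 698 and 702 CPM in wing nub libraries and 514 and 592 CPM in wing tsh libraries (0.34 ± 0.09), a call lost without wing nub replicate 1 (0.34), wing nub replicate 2 (0.33) or wing tsh replicate 1 (0.24). The homeobox gene C15 (-5.14 ± 0.28), dac (-2.66 ± 0.15) and Sox15 (-1.87 ± 0.09) were lower as well. Both zfh2, with 1546 and 1653 CPM in wing nub libraries and 1611 and 1873 CPM in wing tsh libraries, and the dorsal selector ap, with 574 and 555 CPM in wing nub libraries and 466 and 522 CPM in wing tsh libraries, missed the threshold (-0.12 ± 0.10 and 0.19 ± 0.09), and ap passed without wing tsh replicate 2 (0.28).

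Genes that lie side by side often moved together. Of 379 pairs of neighbouring genes that were both called, with neighbours counted among the 7651 genes at 5 CPM or more that have a position, 284 (74.9%) had the same direction. The share was 174 of 260 pairs (66.9%) where the second gene overlaps no gene that starts before it. It was 110 of 119 (92.4%) where the second gene does overlap such a gene, which need not be the first of the pair. The use of strand in counting is not given in the sources used here, so reads of overlapping genes cannot be assigned with certainty. In all, 18 runs of at least 4 neighbours shared a direction, 5 higher and 13 lower, and 7 of them held no overlapping spans.

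The run at nub held the paralog pdm2, with 175 and 178 CPM in wing nub libraries and 9.52 and 3.18 CPM in wing tsh libraries (4.79 ± 0.37). It also held the RNA export factor gene Ref2 (4.77 ± 0.29), which overlaps nub, and the peptidase gene Nepl7 (4.36 ± 0.83), which lies within pdm2. Reads of these 2 genes and of nub and pdm2 cannot be told apart with certainty. The Nepl7 call was lost without either wing nub library (4.28 without replicate 1 and 4.43 without replicate 2), and with DESeq2 (adjusted p = 0.0558), no filter on low counts (0.0664) or the 4 wing libraries alone (0.0597). The run at tsh spanned 263.4 kb and reached its paralog tio, with 5.75 and 4.34 CPM of tio in wing nub libraries, against 270 and 290 CPM in wing tsh libraries (-5.79 ± 0.16), and held 3 low-level genes with CR numbers, of which lncRNA:CR44918 differed by -5.04 ± 0.89 and CR46424 by -5.51 ± 0.45. A 6-gene run at rn held the GTPase activator gene RacGAP84C, at 89.2 and 65.9 CPM in wing nub libraries and 1.96 and 1.87 CPM in wing tsh libraries (5.33 ± 0.33), which overlaps rn. The Iroquois genes formed a run with the non-coding RNA lncRNA:CR32111 (-2.92 ± 0.12). The aquaporin genes Drip (-6.64 ± 0.31) and Prip (-2.79 ± 0.55), which encode water channels, formed another run with 2 numbered genes, and the Prip call was lost without wing nub replicate 2 (-2.45).

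**Figure D2:**
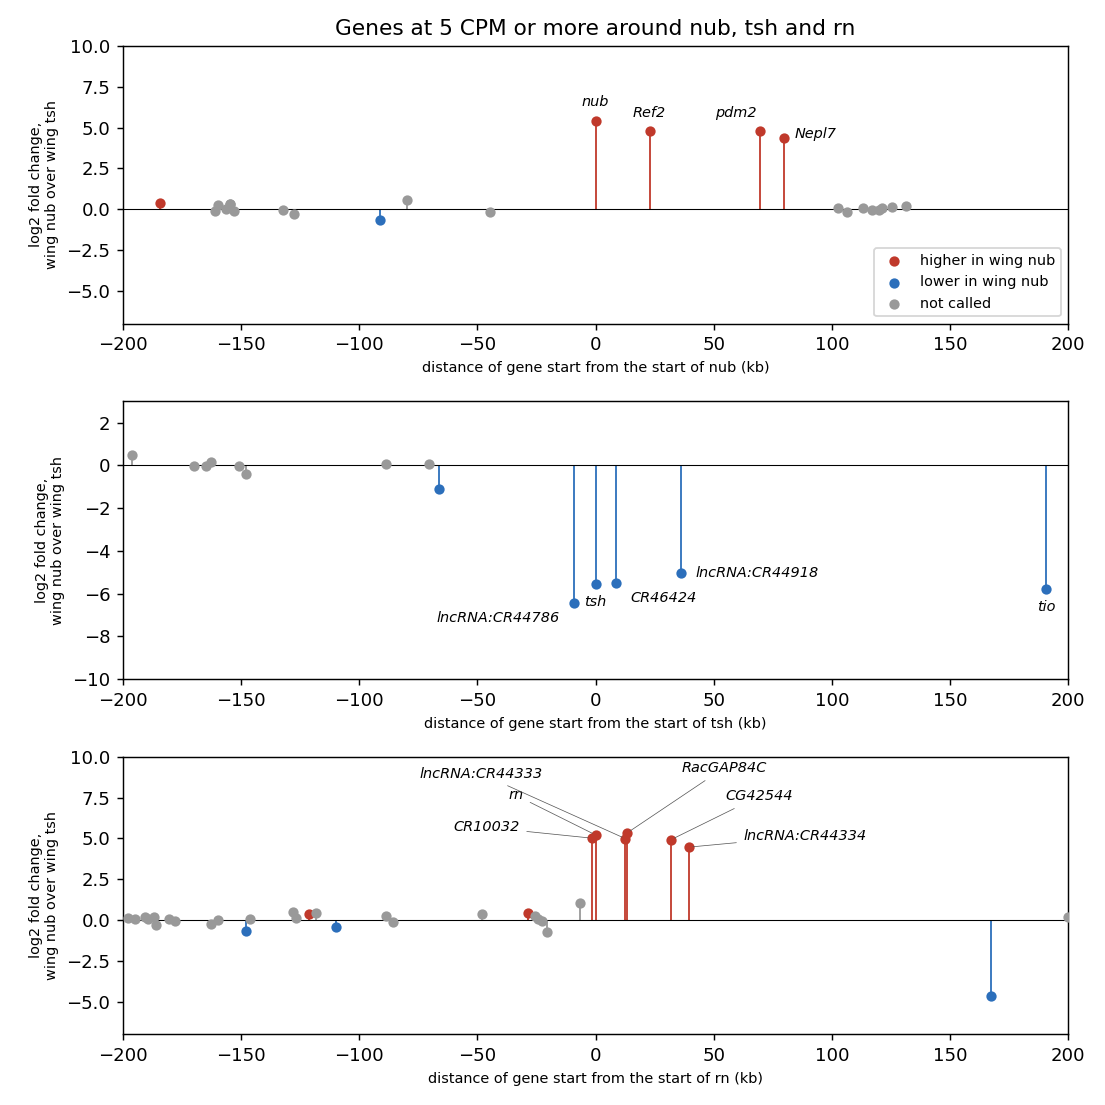
Log2 fold change (wing nub over wing tsh) of genes at 5 CPM or more, placed by the distance in kb of their start from the start of nub, tsh and rn, 1 panel each, out to 200 kb on either side; red is higher, blue lower and grey not called. The named neighbours lie between 4.36 and 5.43 around nub, between 4.47 and 5.33 around rn and between -6.45 and -5.04 around tsh, while most other genes of each window lie near 0.

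Of the Hox genes, which give segments their identity, 4 of 7 tested were called and all 4 were lower in wing nub cells. Beside these stand 9.01% of all genes at 5 CPM called lower and 8.57% called higher. Without wing tsh replicate 1, 1 of the 4 was called. Antp, the Hox gene of this thoracic segment (3R, 6896253 to 6999228), had 157 and 151 CPM in wing nub libraries, against 999 and 1264 CPM in wing tsh libraries (-2.88 ± 0.17, adjusted p = 1.45e-06), and was the 1 called without that library. Ubx, the Hox gene of the haltere segment, had 2.05 and 6.94 CPM in wing nub libraries, against 37.0 and 37.1 CPM in wing tsh libraries (-3.03 ± 0.37), and its adjusted p was 0.0561 without wing tsh replicate 1, at the same fold. For lab and Abd-B the 2 wing tsh libraries differed widely, with 7.61 and 2.87 CPM of lab and 12.6 and 1.56 CPM of Abd-B, against at most 0.620 CPM in wing nub libraries. Without wing tsh replicate 1 the level of lab was under 5 CPM in both groups, and it was not called (-2.83). Abd-B (-4.36 ± 1.10) lost its call without wing tsh replicate 1 (-2.17), wing nub replicate 1 (-3.65) or wing nub replicate 2 (-5.90).

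Among the signalling ligands the families went separate ways. Of 28 tested, 7 were called higher and 10 lower in wing nub cells, beside 8.57% and 9.01% of all genes at 5 CPM. Wnt ligand genes were mostly higher: wg, the ligand of the wing margin and hinge rings, had 340 and 288 CPM in wing nub libraries, against 96.2 and 108 CPM in wing tsh libraries (1.62 ± 0.13). Wnt4, in the same gene cluster, had 62.0 and 60.6 CPM in wing nub libraries, against 11.2 and 7.49 CPM in wing tsh libraries (2.71 ± 0.17), Wnt6 rose by 0.95 ± 0.09 and the unlinked Wnt2 by 1.25 ± 0.15. Wnt10, the remaining member of the cluster, was low and lower, with 1.06 and 0.508 CPM in wing nub libraries and 6.57 and 4.43 CPM in wing tsh libraries (-2.81 ± 0.68), a call lost without wing nub replicate 1 (-3.43) or replicate 2 (-2.39). Without wing tsh replicate 1 it was not called either, since its level was then under 5 CPM (-2.50). The Hedgehog ligand gene hh rose by 0.84 ± 0.09 and the EGFR ligand gene vn by 0.38 ± 0.08. The BMP ligand gene dpp, with 228 and 247 CPM in wing nub libraries and 201 and 221 CPM in wing tsh libraries, missed the threshold (0.17 ± 0.09, adjusted p = 0.227).

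FGF, PVF, cytokine and TNF ligands were lower in wing nub cells. The neighbouring FGF8-like genes ths and pyr, ligands of the receptor Htl, had the largest differences of the list: ths had 9.86 and 10.4 CPM in wing nub libraries, against 419 and 381 CPM in wing tsh libraries (-5.30 ± 0.26), and pyr had 2.23 and 1.97 CPM in wing nub libraries, against 87.0 and 93.3 CPM in wing tsh libraries (-5.42 ± 0.17). The FGF gene bnl, ligand of Btl, differed by -1.53 ± 0.11. The PDGF- and VEGF-related genes Pvf1, Pvf2 and Pvf3 differed by -3.69 ± 0.20, -3.87 ± 0.15 and -1.27 ± 0.15. The JAK/STAT cytokine gene upd1 had 3.46 and 3.10 CPM in wing nub libraries, against 48.4 and 47.5 CPM in wing tsh libraries (-3.87 ± 0.15), and the TNF gene egr had 0.763 and 1.24 CPM in wing nub libraries, against 11.9 and 8.74 CPM in wing tsh libraries (-3.36 ± 0.36). The activin-like gene daw (-5.12 ± 0.72) lost its call without any 1 of 3 libraries: -4.81 without wing nub replicate 1, -5.55 without wing nub replicate 2 and -5.02 without wing tsh replicate 1.

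Of 28 receptors and coreceptors tested, 7 were called higher and 3 lower, beside 8.57% and 9.01% of all genes at 5 CPM, and without wing tsh replicate 1 these counts were 6 and 5. The TNF receptor gene wgn was the steepest, with 209 and 222 CPM in wing nub libraries and 37.9 and 37.9 CPM in wing tsh libraries (2.51 ± 0.09), the reverse of its ligand egr. The Wnt receptor genes also went apart: fz3, itself a Wingless target, rose by 1.15 ± 0.11, and fz2 had 1089 and 1096 CPM in wing nub libraries, against 2120 and 2502 CPM in wing tsh libraries (-1.08 ± 0.10). The FGF receptor genes htl and btl were lower together with their ligands, by -2.86 ± 0.34 and -3.23 ± 0.29, from at most 16.3 CPM in any of the 4 libraries. Both are also markers of other cell types, myoblasts and trachea, whose values are given further on.

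Of 25 feedback and modulator genes tested, 11 were called higher and 7 lower, beside 8.57% and 9.01% of all genes at 5 CPM. The Wingless feedback genes Notum and nkd, inhibitors of the pathway, rose by 1.60 ± 0.09 and 1.59 ± 0.09, and Notum had 402 and 407 CPM in wing nub libraries, against 129 and 138 CPM in wing tsh libraries. The EGFR genes rho, which encodes the protease that releases ligands, aos, an inhibitor, and pnt, a nuclear effector, rose by 1.89 ± 0.12, 1.07 ± 0.10 and 0.61 ± 0.09. The genes called lower were mainly extracellular BMP modulators and JNK or JAK/STAT feedback genes: cv-2 had 43.7 and 46.5 CPM in wing nub libraries, against 136 and 163 CPM in wing tsh libraries (-1.73 ± 0.10), tld differed by -0.95 ± 0.12, magu by -0.79 ± 0.10, sog by -0.60 ± 0.09, puc by -0.87 ± 0.15 and Socs36E by -0.72 ± 0.11.

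**Figure D3:**
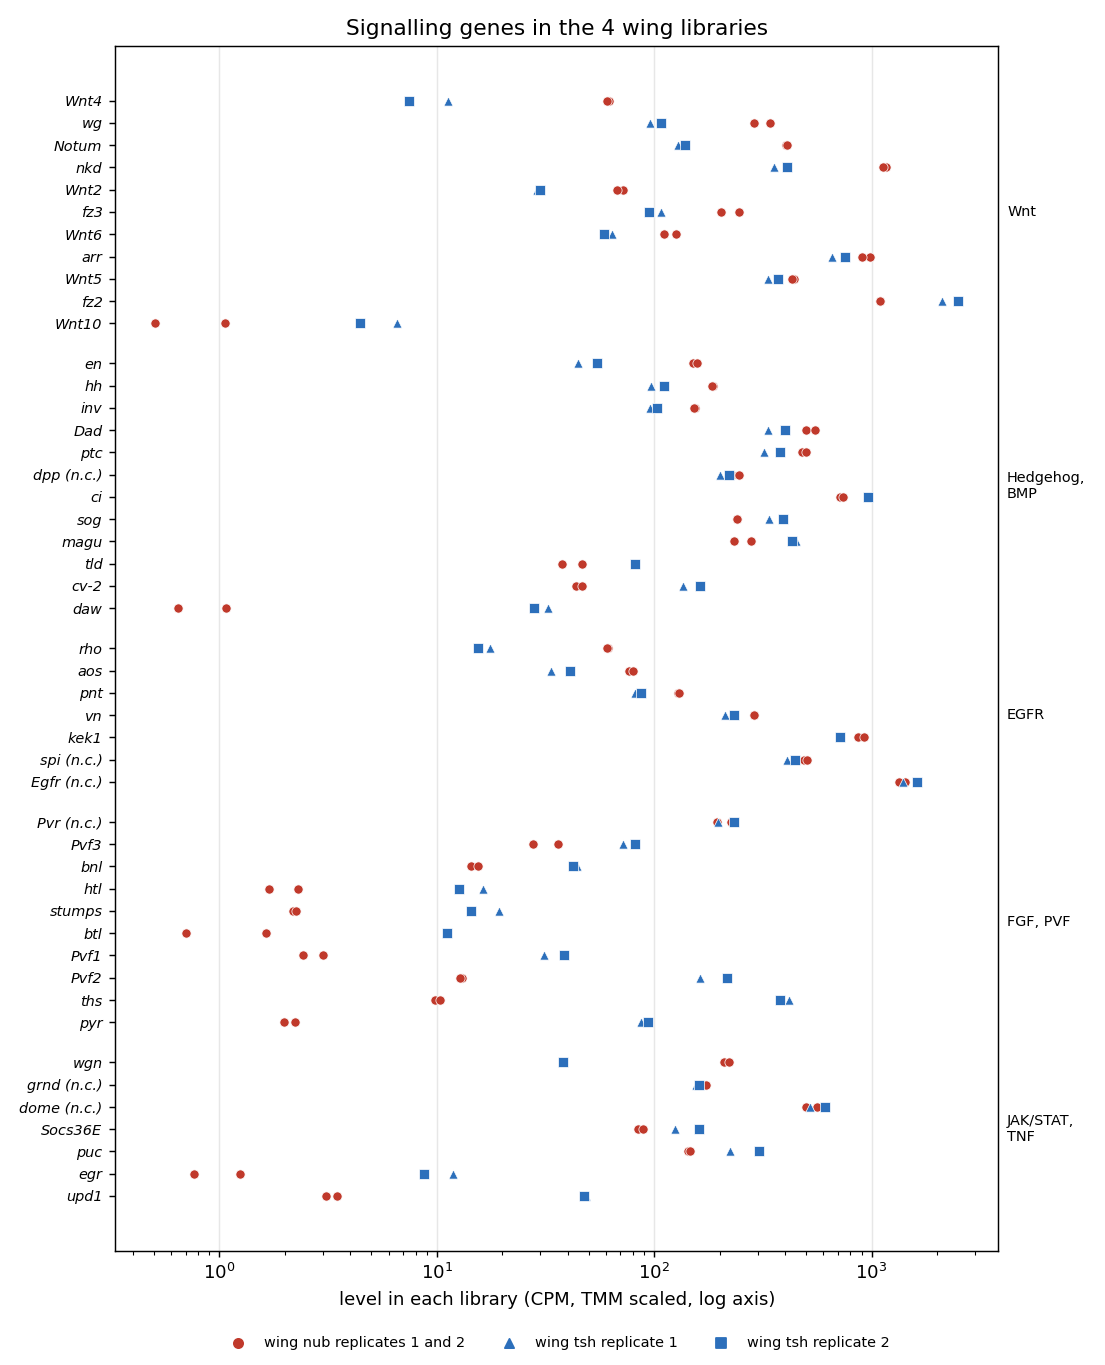
Level of signalling genes in each of the 4 wing libraries, in CPM on a log axis, grouped by pathway and ordered by fold change; circles are the 2 wing nub libraries, the triangle wing tsh replicate 1 and the square wing tsh replicate 2, and n.c. marks genes not called. Most Wnt and EGFR genes lie higher in wing nub libraries, and the FGF and PVF ligands, upd1 and egr lie at 36 CPM or less there.

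Of 22 compartment and boundary genes tested, 9 were called higher and 2 lower in wing nub cells, beside 8.57% and 9.01% of all genes at 5 CPM. The posterior selector en had 150 and 158 CPM in wing nub libraries, against 44.4 and 54.5 CPM in wing tsh libraries (1.64 ± 0.13), its neighbour inv rose by 0.63 ± 0.09, and the anterior gene ci, the transcription factor of Hedgehog signalling, had 719 and 739 CPM in wing nub libraries, against 971 and 965 CPM in wing tsh libraries (-0.41 ± 0.10). The ci call was lost without wing nub replicate 1 (-0.39) or replicate 2 (-0.44), with no filter on low counts (adjusted p = 0.0599) or with the 4 wing libraries alone (0.0726). The shares of posterior and anterior cells in the sorts were not measured. The dorsal LIM-only gene Bx rose by 1.54 ± 0.10, and the leucine-rich repeat genes caps and trn, neighbours that mark cell affinity, rose by 1.10 ± 0.08 and 0.83 ± 0.08. The homeobox gene ct had 82.8 and 75.5 CPM in wing nub libraries, against 184 and 203 CPM in wing tsh libraries (-1.29 ± 0.09).

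Of 18 growth genes tested, 3 were called higher and 2 lower, beside 8.57% and 9.01% of all genes at 5 CPM, and without wing tsh replicate 1 these counts were 3 and 4. The kinase gene fj, a regulator of the cadherins Fat and Dachsous, had 1234 and 1342 CPM in wing nub libraries, against 599.8 and 597 CPM in wing tsh libraries (1.11 ± 0.10). The cadherin gene ds had 3615 and 3325 CPM in wing nub libraries, against 4278 and 5012 CPM in wing tsh libraries (-0.42 ± 0.10), a call lost without wing nub replicate 1 (-0.48) or replicate 2 (-0.37), with no filter on low counts (adjusted p = 0.0738) or with the 4 wing libraries alone (0.139). The Hippo pathway gene kibra differed by -0.77 ± 0.09. Myc (0.68 ± 0.13) and CycE (0.45 ± 0.09), growth and S phase genes, were higher, and the Myc call was lost without wing nub replicate 2 (0.51). Of 28 cell cycle genes, 4 were called higher and none lower, by 0.35 to 0.45, and 3 were called higher without wing tsh replicate 1. Of 82 ribosomal protein genes, 1 was called higher with a median of 0.09. Without wing tsh replicate 1 none was higher, 3 were lower and the median was -0.08.

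Adhesion and guidance genes were called in both directions, 9 higher and 10 lower of 38 tested, beside 8.57% and 9.01% of all genes at 5 CPM. The netrin genes NetA and NetB, secreted guidance cues, had higher levels in wing nub libraries: NetA had 109 and 108 CPM there, against 14.7 and 12.9 CPM in wing tsh libraries (2.97 ± 0.11), and NetB rose by 1.43 ± 0.09. Their receptor gene fra had 541 and 490 CPM in wing nub libraries, against 932 and 1200 CPM in wing tsh libraries (-1.05 ± 0.12). Integrin alpha subunits also parted: if, which pairs with Mys between the wing surfaces, rose by 2.30 ± 0.08 with 451 and 432 CPM in wing nub libraries and 89.0 and 90.02 CPM in wing tsh libraries, and scb had 48.5 and 45.5 CPM in wing nub libraries, against 214 and 272 CPM in wing tsh libraries (-2.37 ± 0.16). The leucine-rich repeat adhesion gene Con was close to 0 in wing nub libraries (0.939 and 0.508 CPM), against 38.6 and 37.9 CPM in wing tsh libraries (-5.72 ± 0.28). The guidance receptor gene robo2 differed by -1.003 ± 0.10 and the teneurin genes Ten-m and Ten-a by -0.84 ± 0.11 and -0.83 ± 0.11.

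Of 22 basement membrane and matrix genes tested, 2 were called higher and 8 lower in wing nub cells. Beside these stand 8.57% and 9.01% of all genes at 5 CPM. Tig, an integrin ligand, had 1.12 and 1.24 CPM in wing nub libraries, against 63.6 and 56.4 CPM in wing tsh libraries (-5.67 ± 0.17), and the collagen XV and XVIII gene Mp had 25.8 and 26.7 CPM in wing nub libraries, against 266 and 281 CPM in wing tsh libraries (-3.38 ± 0.09). The collagen IV genes Col4a1 and vkg, which hemocytes and fat body express strongly, differed by -2.35 ± 0.27 and -2.17 ± 0.36, with 27.7 to 41.4 CPM of Col4a1 in wing tsh libraries. Ppn had 2910 and 2197 CPM in wing nub libraries, against 1031 and 1381 CPM in wing tsh libraries (1.08 ± 0.16), and the laminin gene wb rose by 0.54 ± 0.08.

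The genes with the largest fold changes outside these lists had varied roles. Cyp6a17, a cytochrome P450 gene, had 520 counts over the 2 wing nub libraries and none in wing tsh libraries, at least 161-fold higher with a floor of 3 counts summed over its 2 libraries. The gene peg, which encodes a secreted protein that widens the Wingless range, had 1650 and 1304 CPM in wing nub libraries, against 25.8 and 25.3 CPM in wing tsh libraries (5.85 ± 0.14). The leucine-rich repeat gene ltl, a modulator of BMP signalling, had 418 and 506 CPM in wing nub libraries, against 13.6 and 15.2 CPM in wing tsh libraries (5.004 ± 0.13). On the other side the aquaporin gene Drip had 1.47 and 0.677 CPM in wing nub libraries, against 104 and 109 CPM in wing tsh libraries. The immunoglobulin gene dpr16 had 0.293 and 0.282 CPM in wing nub libraries, against 18.6 and 18.3 CPM in wing tsh libraries (-5.99 ± 0.33). Genes known only by a number made up 231 of the 661 higher and 259 of the 695 lower calls. These were 9.01% and 10.1% of the 2563 such genes at 5 CPM. Of them, 2 had no count in wing nub libraries: CG30026 was at least 68.2-fold lower and lncRNA:CR44203 at least 61-fold lower. The level of lncRNA:CR44203 was under 5 CPM in wing tsh replicate 2, so its call and bound rest in part on wing tsh replicate 1.

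Cuticle genes were mostly silent or low, and 66 of 149 were tested. Of these, 6 were called higher and 6 lower, beside 8.57% and 9.01% of all genes at 5 CPM. Another 46 were under 5 CPM in both groups and could not be called. Cpr49Ac (2R, 12386666 to 12390057), a chitin-binding cuticle protein gene, had 31.0 and 13.8 CPM in wing nub libraries, against 2842 and 3816 CPM in wing tsh libraries (-7.22 ± 0.57), the most abundant of the 12. Cpr49Ah, a member of the same family, had 115 and 126 CPM in wing nub libraries, against 4.97 and 3.87 CPM in wing tsh libraries (4.77 ± 0.35). Vajk2 and Vajk3 rose by 5.57 ± 0.79 and 5.02 ± 0.75, and both calls were lost without wing nub replicate 1 (5.61 and 4.89) or replicate 2 (5.53 and 5.13), that on Vajk2 also without wing tsh replicate 1 (6.51) or replicate 2 (5.01). Of 17 ecdysone response genes, 1 was higher and 3 were lower, beside 8.57% and 9.01% of all genes at 5 CPM. Both ecdysone counts changed without wing tsh replicate 1. ImpL2, a secreted insulin antagonist, had 21.5 and 11.1 CPM in wing nub libraries, against 240 and 328 CPM in wing tsh libraries (-4.13 ± 0.31), and the early gene Eip74EF differed by -1.30 ± 0.11. The sensory precursor gene sens, which marks cells along the wing margin, rose by 2.74 ± 0.25 from low levels (15.8 and 15.6 CPM in wing nub libraries, 2.95 and 1.75 CPM in wing tsh libraries). It was 1 of 3 called higher of 13 proneural genes tested, with 1 lower.

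Of 22 stress genes tested, 3 were called higher and 8 lower, beside 8.57% and 9.01% of all genes at 5 CPM. Gadd45, a stress-induced regulator of kinase signalling, had 27.1 and 27.4 CPM in wing nub libraries, against 166 and 172 CPM in wing tsh libraries (-2.63 ± 0.12), and the glutathione transferase gene GstD1 differed by -1.15 ± 0.12. The Hsp70 genes Hsp70Bb (1.78 ± 0.11) and Hsp70Ba (1.29 ± 0.16) were higher, but their copies are nearly identical and the split of reads among them is uncertain. The cell death gene hid rose by 0.55 ± 0.08. The part of sorting stress in these values was not tested.

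Markers of other cell types that a disc sort could hold were read in the same libraries, and none of them was at 0 in all 4. Beside the counts of called markers stand 8.57% of all genes at 5 CPM called higher and 9.01% called lower. Of 9 myoblast markers, 5 were called lower and 1 higher in wing nub cells, and their summed level was 586 and 579.6 CPM in wing nub libraries, against 642.7 and 698.5 CPM in wing tsh libraries. The defining myoblast gene twi had 1.47 and 1.07 CPM in wing nub libraries, against 12.0 and 8.55 CPM in wing tsh libraries (-3.01 ± 0.38), and zfh1, htl and stumps differed by -3.27 ± 0.27, -2.86 ± 0.34 and -2.93 ± 0.22. Not called were Mef2 (92 and 98.6 CPM in wing nub, 104 and 93 CPM in wing tsh libraries) and rols (289 and 298, 256 and 324 CPM). The marker called higher was kirre (69.6 and 64.2, 54.9 and 44.6 CPM). Together with sns, these abundant genes made up most of the sum in all 4 libraries. Of 6 tracheal markers the early regulators trh and vvl were higher in wing nub cells (3.50 ± 0.15 and 2.97 ± 0.11), with 1432 and 1533 CPM of vvl in wing nub libraries and 179 and 198 CPM in wing tsh libraries, while btl and dysf were lower, dysf by -5.68 ± 0.23. The summed tracheal level was 1745 and 1844 CPM in wing nub libraries and 408.7 and 440.8 CPM in wing tsh libraries, and vvl made up most of it in wing nub libraries.

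Fat body and hemocyte markers were low and uneven. The 6 fat body markers summed to 3.52 and 3.10 CPM in wing nub libraries, against 55.7 and 19.9 CPM in wing tsh libraries, with the larger sum in wing tsh replicate 1. The lipid carrier gene Apoltp made up most of it, with 33.2 and 16.9 CPM in wing tsh libraries, and was the 1 called of 2 tested (-4.47 ± 0.45). The 7 hemocyte markers summed to 54.1 and 62.3 CPM in wing nub libraries, against 75.8 and 48.8 CPM in wing tsh libraries. The one called of 5 tested, the GATA gene srp, had 0.470 and 0.451 CPM in wing nub libraries and 9.70 and 3.75 CPM in wing tsh libraries (-3.86 ± 0.74), and its call was lost without wing nub replicate 1 (-3.89) and, at a level under 5 CPM, without wing tsh replicate 1 (-3.02). The 9 markers of neurons or glia summed to 519.2 and 539.9 CPM in wing nub libraries and 544.6 and 518.3 CPM in wing tsh libraries, with 2 called lower, and 1 without wing tsh replicate 1. The genes elav, nrv2 and loco made up most of each sum. By contrast nSyb, brp, repo and gcm were low and highest in wing tsh replicate 1. The part of these cell types in the lower level of FGF receptors, collagen IV genes and other proximal genes was not tested.

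The haltere disc gave the same contrast in libraries of its own, at a greater depth for its nub cells. Of the 1356 genes called in the wing disc, 716 (52.8%) passed the adjusted p in the same direction in haltere nub over haltere tsh cells and 132 in the opposite one. Of the calls of at least 2-fold, the same direction was found for 128 of 158 higher (81%) and 251 of 380 lower (66.1%). The test of the difference between discs, the disc by domain interaction, called 1727 of 11198 genes (15.4%) and 594 of the 1356 (43.8%). It called 803 of all genes without wing nub replicate 1 and 3400 without wing tsh replicate 2. Of these 594, 143 had a larger difference in the wing disc, 119 a smaller one and 332 the opposite sign. Only 132 of the 332 passed the adjusted p in the haltere disc, so the sign there is uncertain for the rest. Among the regulators, dve, rn, tio, eya and Antp had the same direction in both discs, with haltere log2 fold changes of 6.49, 7.47, -5.36, -4.64 and -2.14. The haltere values of nub and tsh, 6.64 and -5.03, follow from the sort by the same drivers and check the labels only. Other regulators, such as the Doc genes, eyg, salm and Ubx, were called in the wing disc and passed in the opposite direction in the haltere disc.

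The Doc genes reversed between the discs. Doc2, at 73.5 and 76.7 CPM in wing nub and 7.80 and 6.56 CPM in wing tsh libraries, had 1.13 and 0.987 CPM in haltere nub and 14.3 and 13.2 CPM in haltere tsh libraries, so that the fold change of -3.69 ± 0.14 there differed from the wing value by 7.08 ± 0.19 (interaction adjusted p = 6.06e-09). Doc1 and Doc3 differed between discs by 5.78 ± 0.20 and 5.74 ± 0.22. The paired box gene eyg, known from the notum, was lower in wing nub cells and had 62.3 and 72.7 CPM in haltere nub libraries, against 46.1 and 42.4 CPM in haltere tsh libraries (0.61 ± 0.11 there, a difference of -3.56 ± 0.17). Its neighbour toe, at -2.02 ± 0.15 in the wing disc, stood at 0.06 ± 0.14 in the haltere disc. The protein kinase gene fj was higher in wing nub cells and had 219 and 229 CPM in haltere nub libraries, against 594 and 504 CPM in haltere tsh libraries (-1.29 ± 0.10). Other genes whose groups changed sides were the neprilysin gene Nep1 (1.11 in the wing disc, -2.07 in the haltere disc), the chitinase gene Cht5 (0.47 and -3.35) and the RNA-binding protein gene cpo (-1.51 and 3.23). All of these but toe were called in both discs.

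In other genes the wing difference was larger than that of the haltere disc. The FGF gene ths had 55.0 and 51.5 CPM in haltere nub libraries, against 49.8 and 28.2 CPM in haltere tsh libraries (0.46 ± 0.22), and its neighbour pyr was lower in nub cells of both discs (-3.47 in the haltere disc). Con had 0.775 and 0.586 CPM in haltere nub libraries, against 1.84 and 1.20 CPM in haltere tsh libraries. Dll had 96.0 and 84.2 CPM in haltere nub libraries, against 29.0 and 30.8 CPM in haltere tsh libraries (1.59 ± 0.10, an interaction of 2.45 ± 0.14). The zinc finger gene opa showed the reverse: not called in the wing disc, it had 3.95 and 3.58 CPM in haltere nub libraries, against 132 and 122 CPM in haltere tsh libraries (-5.08 ± 0.12). In salr, too, the haltere difference of -2.56 ± 0.09 stood beside one of 0.15 ± 0.09 in the wing disc. Wnt4 rose in nub cells of both discs and more in the haltere disc, to 339 and 335 CPM in haltere nub libraries, against 2.90 and 4.57 CPM in haltere tsh libraries (6.48 ± 0.20).

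**Figure D4:**
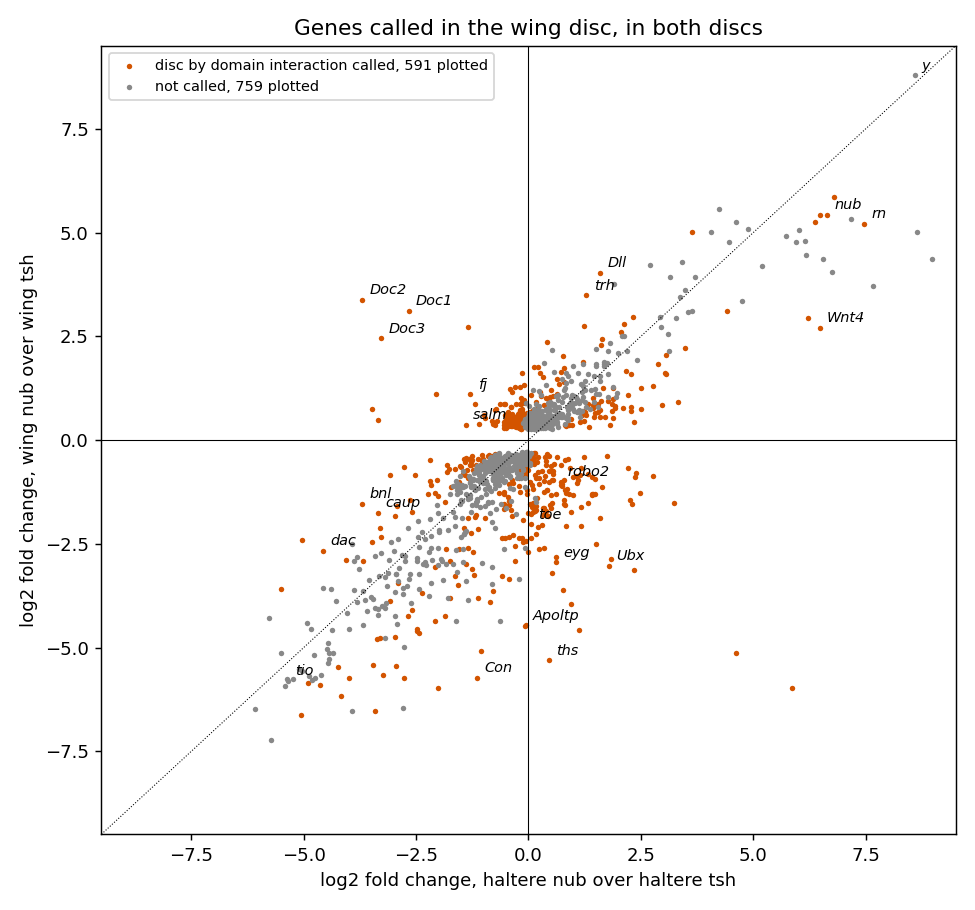
Log2 fold change in the wing disc (vertical) against that in the haltere disc (horizontal), nub over tsh in both, for the 1356 genes called in the wing disc except 6 with a fitted value of 10 or more in size. Orange points are the 591 with a called disc by domain interaction, grey the 759 without, and the dotted line marks equal values; the Doc genes lie at the upper left and ths, Ubx and eyg at the lower right.

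Gene kinds and chromosomes showed a few departures from the overall shares. Of 224 long non-coding RNA genes at 5 CPM or more, 25 (11.2%) were called higher and 36 (16.1%) lower, and of 7234 protein-coding genes 621 (8.58%) and 647 (8.94%). On chromosome 4, which holds few genes, 1 of 73 was higher (1.37%) and 11 were lower (15.1%) in wing nub cells, ci among them, and 3 of these 11 were under 5 CPM in wing tsh replicate 2. These shares are descriptions, and neighbouring genes in them are not independent.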

How the data were processed

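Per the labels' protocols, RNA of sorted cells was extracted with TRIZOL and made into libraries by the Nugen Ovation system for Drosophila. Each deposited file holds the authors' raw counts of 1 library over 17807 FlyBase IDs. The tools HISAT2, Bowtie2, bcl2fastq and deepTools and the build dm6 are listed in the submitters' processing notes. Which counting tool, annotation and strand setting were used is not given in the sources used here. A table of symbols matched 17710 IDs and not 97. Positions come from a RefSeq table of Release 6, the assembly behind dm6.

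Genes kept by filterByExpr (11198) were scaled by TMM and fitted with edgeR 4.0.16 in R 4.3.3, by the quasi-likelihood test with robust dispersions, over all 4 groups of 8 libraries, with 4 residual degrees of freedom and a common biological coefficient of variation of 19.9%. Tests were two-sided with Benjamini-Hochberg adjustment over all genes tested. DESeq2 1.42.0 was an alternative. The fit was tested on simulated data. Replicates differed by more than sampling noise (chi-square per gene from 9 to 31.4). The labels do not say whether they came from separate larvae, and their spread, which p-values measure, may be technical. A zero count is bounded by 3 counts over the group, which covers counting error only.

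Members and gene lists were chosen with earlier results of these data known. The text draws on genes by rule: nub, tsh, Antp, Ubx, y and w, the 15 largest calls in each direction without numbered genes, up to 4 calls a list and direction, neighbouring paralogs, calls against their list, and 10 interaction genes. Numbered genes passed over among the largest were 6 higher and 11 lower. List members beyond these, and genes of the runs, were named after their values were seen.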

Additional observations from a re-analysis of the deposited data

Results flagged for a closer look

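Of the 151 genes followed across fits, 82 had a difference between nub and tsh cells that was not the same in the wing and the haltere disc, by edgeR's test of the disc by domain interaction at an adjusted p under 0.05. The values are log2 fold changes in the wing disc minus those in the haltere disc, and 15.4% of all genes tested passed the same test. Many of the 151 genes were named for a large wing difference, and some for a small interaction adjusted p. Their share is raised by this choice and cannot be compared with 15.4%. The haltere nub libraries are the deepest of the series, and the part of depth in these differences was not tested.

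A first set had opposite signs in the 2 discs. The haltere value did not pass the adjusted p for vn, CycE, hid, pdm3, toe, Wnt10, ths, puc and Ten-a, so its sign is uncertain. Genes higher in wing nub cells and at or below 0 in haltere nub cells differed by 1.77 for salm, 5.78 for Doc1, 7.08 for Doc2, 5.74 for Doc3, 0.57 for vn, 2.40 for fj, 1.12 for Myc, 0.69 for CycE, 0.57 for hid, 3.18 for Nep1 and 3.83 for Cht5, and by 2.71 for salr, which was above 0 and not called in the wing disc. The Doc genes, Cht5 and Nep1 had the largest of these values. Genes lower in wing nub cells, or below 0 and not called in the case of zfh2, and above 0 in haltere nub cells differed by -4.82 for Ubx, -1.84 for pdm3, -3.56 for eyg, -2.08 for toe, -0.66 for zfh2, -3.42 for Wnt10, -5.76 for ths, -1.32 for sog, -1.24 for puc, -1.72 for robo2, -0.97 for Ten-a and -4.74 for cpo. Ubx, the haltere Hox gene, had 2738 and 2753 CPM in haltere nub libraries and 769 and 818 CPM in haltere tsh libraries.

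A second set had the same sign and a larger difference in the wing disc. The haltere value did not pass the adjusted p for inv, Socs36E and Apoltp, so its sign is uncertain. Those higher in wing nub cells differed by 1.37 for ltl, 2.45 for Dll, 0.82 for bs, 0.62 for vg, 0.50 for hh, 0.68 for rho, 0.92 for en, 0.59 for inv, 0.70 for if, 1.51 for sens, 2.21 for trh and 0.65 for vvl. Those lower in wing nub cells differed by -1.57 for Drip, -2.005 for B-H1, -3.98 for dpr16, -1.27 for eya, -0.95 for drm, -1.74 for tup, -4.58 for Con, -2.43 for Tig, -0.52 for Sox15, -1.95 for pyr, -1.32 for Pvf1, -0.78 for Pvf2, -0.71 for Socs36E, -0.75 for ct, -1.78 for scb, -0.80 for Gadd45, -1.64 for zfh1 and -4.41 for Apoltp. Dll and trh lead the first list, and Con, Apoltp and dpr16, at 8.39 CPM or less in all haltere libraries, the second.

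The last set had a larger difference in the haltere disc. Those higher in wing nub cells, or not called there, differed by -1.21 for nub, -0.95 for peg, -1.06 for dve, -1.10 for nab, -2.25 for rn, -0.67 for bi, -1.42 for wg, -1.25 for Wnt2, -3.77 for Wnt4, -0.83 for Wnt6, -0.67 for Notum, -0.67 for pnt, -1.12 for caps, -1.09 for trn, -1.34 for wb and -1.49 for Hsp70Ba. The distal regulators nub, dve, nab and rn and 4 Wnt ligand genes belong to it. Those lower in wing nub cells, or not called there, differed by 1.20 for kni, 0.66 for knrl, 1.33 for ara, 1.59 for caup, 0.37 for mirr, 4.996 for opa, 1.90 for dac, 2.17 for bnl, 0.82 for Pvf3, 1.10 for fz2, 0.85 for cv-2 and 0.76 for lncRNA:CR32111. Here opa, which was not called in the wing disc, had the largest value.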

How the results depend on the processing

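Scaling, tool and filter moved the total of the full rule little. The 1356 called genes (661 higher, 695 lower) became 1348 with DESeq2 size factors in edgeR and 1426 with upper quartile scaling. They became 1416 with DESeq2 and 1384 with no filter on low counts. Under the first 3 of these, 93.1% to 98.7% of the main calls were shared, none with the opposite sign. The 2 directions moved more. By the adjusted p alone, DESeq2 passed 1865 genes (652 higher, 1213 lower), against 1549 (667 and 882) in the main fit. With no filter the full rule called 751 higher and 633 lower. With the 4 wing libraries alone the test called 907 genes (349 higher, 558 lower), 850 of them by the full rule (349 higher), with fewer libraries behind the estimate of spread. A level of 20 CPM left 453 lower calls, and a 2-fold minimum 538 calls (158 higher, 380 lower). Without 1 wing library at a time, calls by the adjusted p ranged from 905 to 2718 (372 to 928 higher, 533 to 1790 lower), calls by the full rule from 861 to 1943 (371 to 920 higher, 490 to 1023 lower) and interaction calls from 803 to 3400. The lone library left in a group is then assumed to vary like the other groups. Of the named genes, exd (-0.215 without wing tsh replicate 1 and 0.044 without replicate 2) and opa (-0.192 and 0.042) changed sign; neither was called. The gene S, called higher in wing nub cells (0.44 ± 0.09), lost its call without wing nub replicate 2 (0.36). Other calls lost when 1 library is left out stand beside each gene. Named genes also lost the adjusted p with DESeq2 (Nepl7, 0.0558), with no filter (Abd-B 0.096, ci 0.0599, ds 0.0738, Nepl7 0.0664), with the 4 wing libraries alone (salm 0.109, bowl 0.158, Abd-B 0.139, vn 0.0834, S 0.0848, ci 0.0726, ds 0.139, Nepl7 0.0597), with a replicate block (Abd-B 0.0651) and with crossed numbers (Nepl7 0.0756). The alternatives on agreement with wing tsh replicate 2 and the crossed pairing were chosen after seeing the data.

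Replicate numbers did not pair the libraries: deviations of same-numbered wing nub and wing tsh libraries had a correlation of -0.105 over 7396 genes, and those of the other pairs of groups lay between -0.066 and 0.181. With a replicate block 1438 genes passed the adjusted p, 1307 by the full rule, and 1562 interactions. With crossed numbers in the wing disc these counts were 1649, 1436 and 2010. A look at promoter motifs was planned and not run. Depth limits genes under 5 CPM most: 1 read equals 0.0565 to 0.0642 CPM in the wing libraries.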

Other observations

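A few further groups are given as values. Of 11 genes of the yellow family tested, 2 were called higher and 3 lower in wing nub cells, beside 8.57% and 9.01% of all genes at 5 CPM. One of the 2 called higher is y, for which a copy carried by 1 line and the resident gene cannot be told apart. Of 6 planar polarity genes, 2 were called higher and none lower, and without wing tsh replicate 1 these counts were 2 and 2. Of 4 eye colour genes none was called with TMM scaling in edgeR, and w passed the adjusted p with upper quartile scaling (0.0383) and with DESeq2 (0.0156). In the run of 7 lower genes at pdm3, the other 6 lie within the span of pdm3, so their reads and those of pdm3 cannot be told apart. All 7 lay between -2.06 and -1.63 in the wing disc and between 0.11 and 0.40 in the haltere disc. In the run of 4 lower genes at ush, lncRNA:CR46258 and lncRNA:CR46259 lie within the span of ush. They differed by -3.27 and -3.29 in the wing disc and by -3.32 and -3.19 in the haltere disc.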
